A study of Mus musculus with 7 samples.

Results

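The cytochrome P450 genes of families 1 to 4 were described in kidneys of cisplatin-treated mice. A gene was taken as a member when the deposited count table listed it as protein coding, its name began with Cyp, a family number from 1 to 4, a subfamily letter and a digit, and it had at least 10 counts in 3 or more of the 7 libraries. Of 54532 genes in the table, 80 coding genes had such a name and 38 met the count minimum. They comprised 2 genes of family 1, 21 of family 2, 1 of family 3 and 14 of family 4, in 18 subfamilies. No member met the minimum through the libraries of 1 group alone. The libraries held bulk kidney RNA of C57BL/6J mice, 6 to 8 weeks of age and male per the series' design text. Every animal had received cisplatin, a platinum agent toxic to the renal tubule, by tail vein at a dose of 20 mg/kg. In 4 libraries the label is saline. In the other 3 the label is DXZ, a name the labels do not spell out, dosed at 40 mg/kg through the tail vein, first 30 min ahead of cisplatin and then once per 24 h over 3 days. No kidney without cisplatin was analysed here, so every value is a comparison between injured kidneys, and the labels do not say that each library is a separate animal; p-values measure the spread between these samples.

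Cytochrome P450 enzymes are heme proteins, most of them in the endoplasmic reticulum, that use oxygen and electrons from a reductase to oxidise drugs, steroids and fatty acids. Families 1 to 3 are best known for drugs and other foreign compounds, though several members act on arachidonic acid, and family 4 hydroxylates the ends of fatty acid chains. In mouse kidney the proximal tubule holds most of them. The Cyp2c and Cyp2j enzymes there make epoxides of arachidonic acid and the Cyp4a enzymes make hydroxylated arachidonic acid, lipids that act on vessel tone and salt transport. Cyp4a genes are classic targets of the fatty acid receptor PPARα, and several renal P450 genes of the mouse depend on androgen.

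Cyp2d26, Cyp2j5 and Cyp2j11 fell, and Cyp2s1 and Cyp4f16 rose, as described further on. The 150 bases before the RefSeq start site (build GRCm38.p6) are shown for these 5 because they are the changed members with a promoter in the table used. They read 5′ to 3′ on the gene's strand, with capitals for the bases of any searched motif.
Cyp2d26: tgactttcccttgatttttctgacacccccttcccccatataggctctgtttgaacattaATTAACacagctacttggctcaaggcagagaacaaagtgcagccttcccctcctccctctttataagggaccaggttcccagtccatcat
Cyp2j5: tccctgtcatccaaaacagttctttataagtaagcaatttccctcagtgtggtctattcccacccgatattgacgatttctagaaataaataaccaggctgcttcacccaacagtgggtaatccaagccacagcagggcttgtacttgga
Cyp2j11: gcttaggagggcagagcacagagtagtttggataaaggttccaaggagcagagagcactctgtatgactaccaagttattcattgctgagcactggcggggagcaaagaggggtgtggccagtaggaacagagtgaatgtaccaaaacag
Cyp2s1: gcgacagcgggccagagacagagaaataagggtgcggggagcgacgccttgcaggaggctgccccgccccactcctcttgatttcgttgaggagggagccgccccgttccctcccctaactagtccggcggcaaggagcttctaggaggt
Cyp4f16: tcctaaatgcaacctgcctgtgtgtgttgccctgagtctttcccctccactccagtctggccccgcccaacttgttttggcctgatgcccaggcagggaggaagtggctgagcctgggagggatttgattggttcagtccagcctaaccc

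These stretches lie at chr15:82794246-82794395 (minus strand) for Cyp2d26, chr4:96664120-96664269 (minus) for Cyp2j5, chr4:96348681-96348830 (minus) for Cyp2j11, chr7:25816526-25816675 (minus) for Cyp2s1 and chr17:32536407-32536556 (plus) for Cyp4f16. G and C made up 47.3%, 44% and 50% of the bases before Cyp2d26, Cyp2j5 and Cyp2j11, and 64.7% and 58% of those before Cyp2s1 and Cyp4f16, where the median over 32851 promoters was 54%. The deposited gene coordinates do not all begin at these RefSeq starts. By those coordinates the Cyp2s1 stretch lies wholly within the gene (25802475 to 25816913). The stretches of Cyp2d26 and Cyp2j5 run partly into their genes, which reach to 82794294 and 96664154. The RefSeq table held 31 promoters for 27 of the 38 members. The motifs below were searched on both strands in windows from 250 bases before to 50 after the start. GTTAAT, a short site of the tubule factor HNF1, occurred in 5 of the 31 (16.1%) and in 7.1% of all promoters. Those with it were Cyp2a4, Cyp2a5, Cyp2d26, Cyp4a32 and Cyp4f14, of which only Cyp2d26 changed. Cyp2a4 and Cyp2a5 are near copies, with the site from -160 and -161, so their hits are not independent. In Cyp2d26 the site lies on the opposite strand and gives the capitals shown. The core of the xenobiotic response element bound by the AhR, GCGTG, occurred in 32.3% against 32.4% of all promoters, among them those of Cyp1a1, Cyp1b1 and Cyp4f16, in the last outside the stretch shown. TGACNNNGC, the antioxidant response core, occurred in 9.68% against 12.4%. CAAAGTCCA, an HNF4 site, and the direct repeat 1 element, to which PPARα binds, occurred in 0 member promoters, and in 0.475% and 0.0396% of all. These matches are descriptions of letters in the windows.

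Total counts were 16058157 to 18133736 per library. Saline 1 and DXZ 1 stood apart from the others of their groups. A list of 13 proximal tubule markers summed to 16645 CPM in saline 1 and to 7541 to 10452 in saline 2 to 4. Macrophage markers summed to 258 CPM in DXZ 1 and to 61.9 to 165 in the other 6 libraries. Cd68, 1 of these 6 markers, ran otherwise. It was at 40.6, 57 and 32.1 CPM in DXZ 1, 2 and 3 and at 7.97, 16.9, 12.7 and 8.34 CPM in saline. Cd68 was the 1 marker of the list to pass the test described further on. CPM here is the count scaled to the TMM-adjusted library size. Y-linked Ddx3y was between 41.2 and 60.6 CPM and Xist between 0 and 0.169 CPM in all 7 libraries, as in male tissue.

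Family 4 made up most of the members' summed FPKM in each library but saline 1. Genes were compared with each other by FPKM, the authors' counts scaled to gene length and library size. The PPARα target Cyp4a14 had the highest median in saline, 988 FPKM, followed by Cyp4a10 at 626, the epoxygenase Cyp2j5 at 459, Cyp2e1, which oxidises ethanol and paracetamol, at 314, Cyp4b1 at 251 and Cyp4a31 at 210. Their saline libraries overlapped from each gene to the next, so this order is not resolved by the spread. In DXZ the medians were 1097 FPKM for Cyp4a14, 553 for Cyp4a10, 243 for Cyp4b1, 208 for Cyp2j5, 205 for Cyp4a31 and 61.6 for Cyp2e1. At the other end, 12 members had a saline median under 1 FPKM, among them Cyp1a1 and Cyp3a13.

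**Figure D1:**
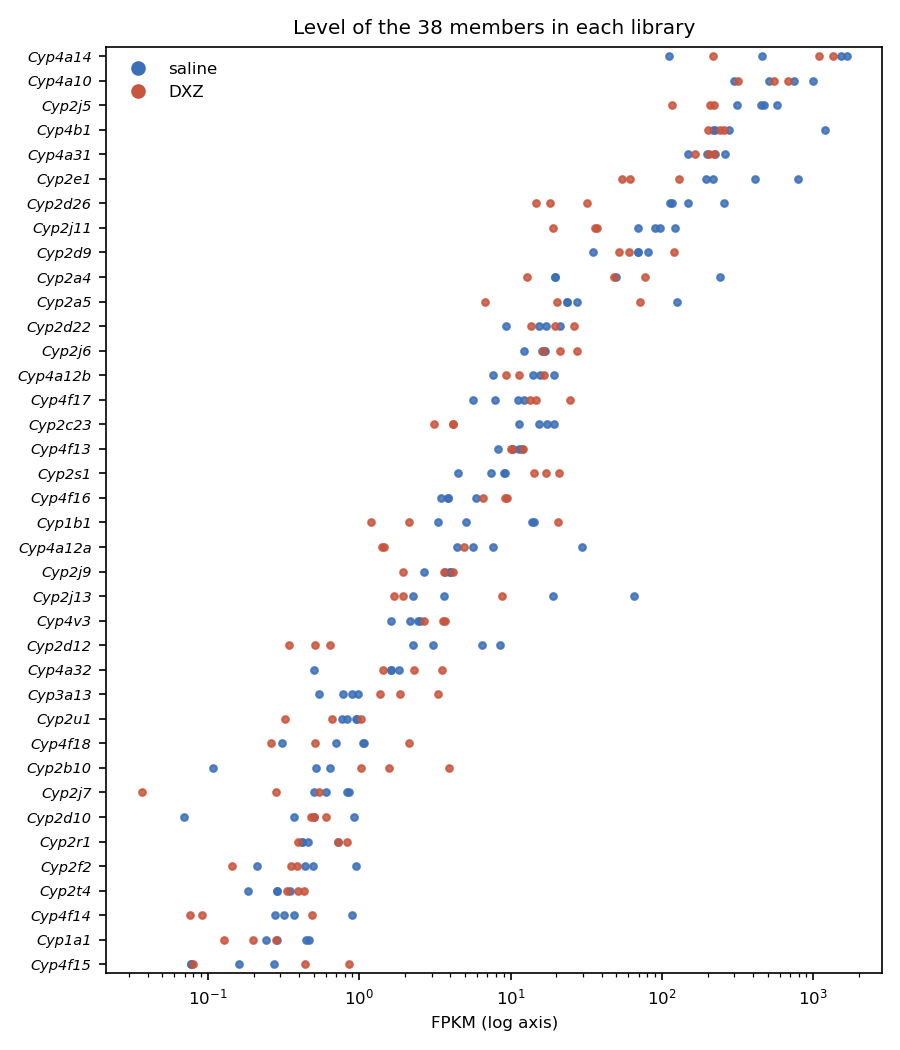
FPKM on a log axis for each of the 38 members, ordered by the median over 7 libraries, with 1 point per library (blue saline, red DXZ). Cyp4a14 and Cyp4a10 lead the order, and the saline library of Cyp2b10 with 0 counts is not drawn.

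The composition varied widely among libraries of the same group. Cyp4a genes made up 15.1%, 45.8%, 67.9% and 63.6% of the members' summed FPKM in the saline libraries, and 47.9%, 73.3% and 68.6% in those labelled DXZ. Saline 1 and DXZ 1 were the lowest of their groups. Cyp4b1 alone made up 30% in saline 1 and 4.86% to 10.6% in saline 2 to 4. The Cyp2j genes made up 19.6%, 22.4%, 11.1% and 12.6% in saline and 18.3%, 6.6% and 8.56% in DXZ. Summed over all members, the level was 6177 to 10886 CPM in saline and 3673 to 8050 CPM in DXZ, so the groups overlapped.

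**Figure D2:**
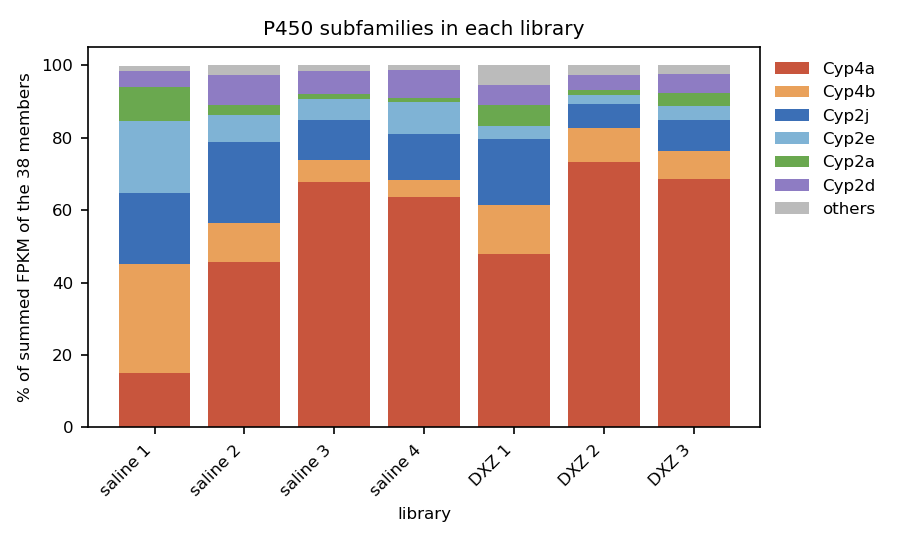
Share of the 38 members' summed FPKM held by each subfamily, 1 bar per library. The Cyp4a share runs from 15.1% in saline 1 to 73.3% in DXZ 2, and saline 1 has the largest Cyp4b and Cyp2e shares.

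In kidneys labelled DXZ, 5 P450 members fell and 2 rose. Those that fell were Cyp2c23, Cyp2j5, Cyp2j11, Cyp2d12 and Cyp2d26, and those that rose were Cyp2s1 and Cyp4f16. The test was edgeR's quasi-likelihood F test over 15351 genes with Benjamini-Hochberg adjustment, and a gene changed when its adjusted p was below 0.05. Of the 37 members tested, 13.5% fell and 5.41% rose, where 2.31% of all genes tested fell and 3.24% rose. The 7 made up 18.9% of the members tested, where 5.56% of all genes changed. Over the 37 members tested the median log2 fold change, DXZ over saline, was -0.17, and 0.01 over all genes. The members were also noisier: the median SE was 0.41 over members and 0.18 over all genes. In 6 members every DXZ library was below every saline library (16.2%; 11.3% of all genes tested), the 5 that fell and Cyp2e1. In 6 every DXZ library was above (16.2%; 12.8% of all genes tested), the 2 that rose and Cyp2b10, Cyp3a13, Cyp4f17 and Cyp4v3.

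The calls depended on single libraries. Without saline 1, 2, 3 and 4 there were 5, 4, 5 and 0 changed members, and without DXZ 1, 2 and 3 there were 8, 0 and 2. Without saline 4 or DXZ 2, 15 and 13 members had an unadjusted p below 0.05 by edgeR, against 14 with all libraries. Only 4 and 1 of all genes then passed the adjusted test. The 14 were 37.8% of the members tested, where 25.4% of all genes tested had such a p. That 25.4% is also the share to set beside such counts for the lists further on. Without both saline 1 and DXZ 1 the same 5 members fell, and Cyp2s1 and Cyp2j6 rose. With all libraries DESeq2 called 6 lower and 5 higher, and limma-voom 4 lower and 2 higher.

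**Figure D3:**
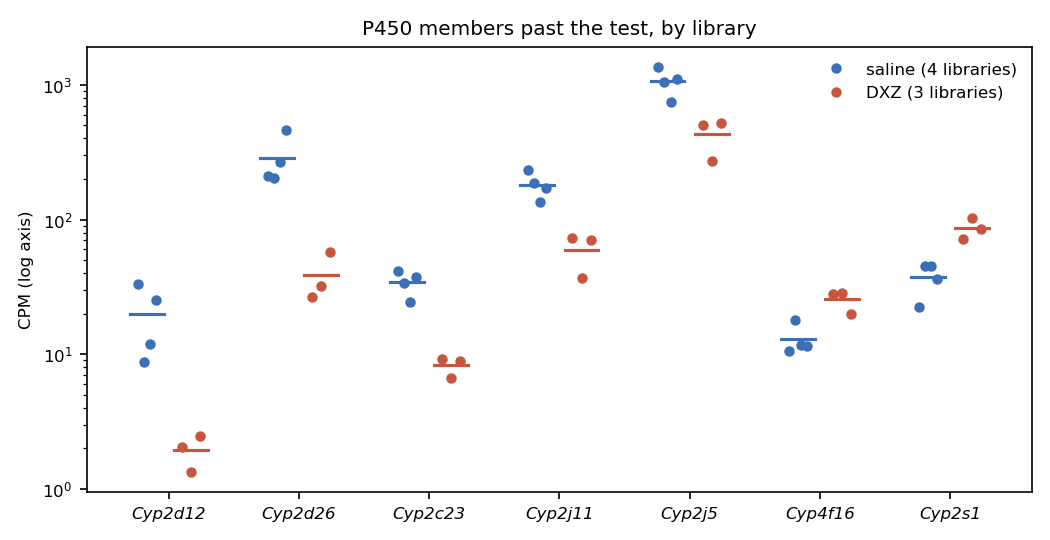
CPM on a log axis for the 7 members past the test, 1 point per library, with a bar at each group's mean (blue saline, n = 4; red DXZ, n = 3). The groups do not overlap for any of the 7.

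Cyp2c23 and 2 of the 6 tested Cyp2j members, Cyp2j5 and Cyp2j11, fell. Cyp2c23, the main Cyp2c enzyme of mouse kidney (chromosome 19, 44005022 to 44029208), was at 41.6, 33.5, 24.6 and 37.4 CPM in the saline libraries, in order, and at 9.19, 6.71 and 8.97 CPM in the DXZ libraries. Every DXZ library lay well below every saline library, and the DXZ libraries lay close together. The log2 fold change was -2.05 (standard error 0.21, adjusted p = 0.0192 by edgeR). It stayed between -2.18 and -1.93 whichever library was left out, and its adjusted p was 0.0718 without saline 4 and 0.0612 without DXZ 2. Of 15 coding Cyp2c genes Cyp2c23 was the single member, and 10 had 0 counts in all libraries.

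Cyp2j5, the abundant renal epoxygenase (chromosome 4, 96628773 to 96664154), was at 1352, 1059, 743 and 1098 CPM in saline and at 500, 272 and 518 CPM in DXZ. The highest DXZ library was below the lowest saline library, and DXZ 2 was the lowest of all. It fell, with a log2 fold change of -1.31 (standard error 0.28, adjusted p = 0.0424 by edgeR). Cyp2j11, a neighbour in the same gene cluster (96294508 to 96348662), was at 234, 188, 134 and 171 CPM in saline and at 73.3, 36.5 and 69.9 CPM in DXZ. It fell with the same arrangement of libraries, at a log2 fold change of -1.60 (standard error 0.28, adjusted p = 0.0267 by edgeR). Cyp2j5 lost its call without saline 1, 2 or 4 or DXZ 2 or 3 (edgeR adjusted p from 0.0734 to 0.108), and Cyp2j11 without saline 2 or 4 or DXZ 2 or 3 (0.0551 to 0.0795).

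The other 4 members of the Cyp2j cluster did not pass. Cyp2j6, which lies between Cyp2j11 and Cyp2j5 (96516138 to 96553661), was at 44.7, 58.6, 60.1 and 60.5 CPM in saline and at 60.2, 99.2 and 76.3 CPM in DXZ, a difference of 0.49 on the log2 scale (adjusted p = 0.138 by edgeR). Cyp2j9, also between them, was at -0.15 (edgeR adjusted p = 0.772). Cyp2j7 was at -1.28 and Cyp2j13 at -2.44, with edgeR adjusted p = 0.262 and 0.252. The ratio of Cyp2j5 to Cyp2j6 CPM was 30.2, 18.1, 12.4 and 18.1 in saline and 8.29, 2.75 and 6.78 in DXZ. These ratios did not overlap, and their mean log2 differed by -1.80 (exact two-sided permutation p = 0.0571, the smallest that 4 against 3 libraries can give; 0.0857 adjusted over 3 such ratios, chosen with the results known).

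The Cyp2d genes, a family of drug and steroid oxidases clustered on chromosome 15, split. Cyp2d26 (82790101 to 82794294) was at 212, 204, 266 and 459 CPM in saline and at 26.8, 32.3 and 57.6 CPM in DXZ. The highest DXZ library was far below the lowest saline library, and the log2 fold change was -2.87 (standard error 0.39, adjusted p = 0.0204 by edgeR). Cyp2d12 (82555072 to 82560403) was at 33.3, 8.8, 12 and 25.2 CPM in saline and at 2.03, 1.33 and 2.48 CPM in DXZ. It had the lowest fold change of all members, -3.34 (standard error 0.53, adjusted p = 0.0215 by edgeR), with a saline range of 3.78-fold. Both lost the call without saline 4 or DXZ 2, and Cyp2d12 also without DXZ 3 (edgeR adjusted p = 0.0581) and by limma-voom (adjusted p = 0.0894).

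Cyp2d9, the testosterone hydroxylase that marks male liver, was at 93.2, 216, 186 and 184 CPM in saline and at 141, 161 and 321 CPM in DXZ. The groups overlapped, with saline 1 the lowest and DXZ 3 the highest library (log2 fold change 0.29, edgeR adjusted p = 0.654). Cyp2d22 and Cyp2d10 did not pass either, at 0.34 and 0.18. The ratio of Cyp2d26 to Cyp2d9 was 2.27, 0.945, 1.43 and 2.49 in saline and 0.19, 0.2 and 0.179 in DXZ, without overlap (exact two-sided permutation p = 0.0571, again the smallest possible; 0.0857 adjusted). This pair too was chosen with the results known, so its ratio adds no separate support for the split.

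The fall of these 5 genes went with lower proximal tubule markers. The 13 markers summed to 7541 to 16645 CPM in saline and 3548 to 4831 CPM in DXZ, where 6 of the 13 fell and 0 rose, Slc5a12 (-2.13), Lrp2 (-1.64) and Cubn (-1.08) among them (edgeR adjusted p = 0.0209, 0.0234 and 0.0281). In bulk tissue, fewer proximal tubule cells and less of a transcript per cell cannot be told apart. Per 1000 CPM of summed markers, Cyp2j5 was at 81.2 to 106 in saline and 76.8 to 113 in DXZ, and Cyp2j11 at 14.1 to 18.7 and 10.3 to 15.2, so both overlapped on this scale. Cyp2c23 was at 2.5 to 3.58 in saline and 1.89 to 1.96 in DXZ, Cyp2d12 at 0.878 to 2.41 and 0.375 to 0.54, and Cyp2d26 at 12.7 to 43.9 and 5.54 to 12.6. These last 3 did not overlap on this scale, Cyp2d26 by a narrow margin. The part of the markers in these results was not tested further.

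Cyp2s1 and Cyp4f16 rose. Cyp2s1, an epithelial P450 found mostly outside the liver (chromosome 7, 25802475 to 25816913), was at 22.4, 45, 45.3 and 36.3 CPM in saline and at 71.9, 103 and 84.4 CPM in DXZ. Saline 1 was the lowest library, and the groups did not overlap. It rose by 1.22 on the log2 scale (standard error 0.24, adjusted p = 0.0340 by edgeR), and its call held without saline 1 or DXZ 1 and was lost without any other single library (0.0502 to 0.111). The noncoding gene Gm26707 overlaps its start on the opposite strand and shares 4.25% of its 50-base stretches. Whether counting used strand is not given, so reads from that stretch cannot be told apart.

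Cyp4f16, of a subfamily that hydroxylates leukotrienes and long fatty acids (chromosome 17, 32536558 to 32551798), was at 10.5, 18, 11.7 and 11.6 CPM in saline and at 28.2, 28.7 and 19.9 CPM in DXZ. Saline 2 was nearest to the DXZ libraries, which it did not reach. The log2 fold change was 0.98 (standard error 0.22, adjusted p = 0.0439 by edgeR), and the call was kept only without saline 2 among the libraries left out singly (0.0564 to 0.126 for the others). The neighbouring Cyp4f17 was at 9.63, 13.4, 20.8 and 18.7 CPM in saline and 23.4, 24.7 and 42.2 CPM in DXZ. Those groups did not overlap, but the gene did not pass (log2 fold change 0.94, edgeR adjusted p = 0.1), though it did by DESeq2 (adjusted p = 0.0292). Cyp4f13, the most abundant Cyp4f gene by counts, was at 27.9 to 39.3 CPM in saline and 33.9 to 40.2 CPM in DXZ (0.05, SE 0.14). The ratio of Cyp4f16 to Cyp4f13 was 0.279, 0.517, 0.421 and 0.295 in saline and 0.823, 0.845 and 0.495 in DXZ. Saline 2 lay within the DXZ range (exact two-sided permutation p = 0.114, 0.114 adjusted).

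Beside these increases, urothelium markers summed to 34.5 to 179 CPM in saline and 467 to 593 CPM in DXZ. Krt20 made up most of that sum and rose (log2 fold change 2.31, edgeR adjusted p = 0.0338). The other 5 of the 6 markers did not pass, and in DXZ 2 each of them lay within its saline range. Upk3a was at 0.115 to 4.64 CPM in saline and 10.1, 2.3 and 14.8 CPM in DXZ. Cyp2s1 and Cyp4f16 were both highest in DXZ 2. Their part in the rise of Cyp2s1 and Cyp4f16 was not tested.

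**Figure D4:**
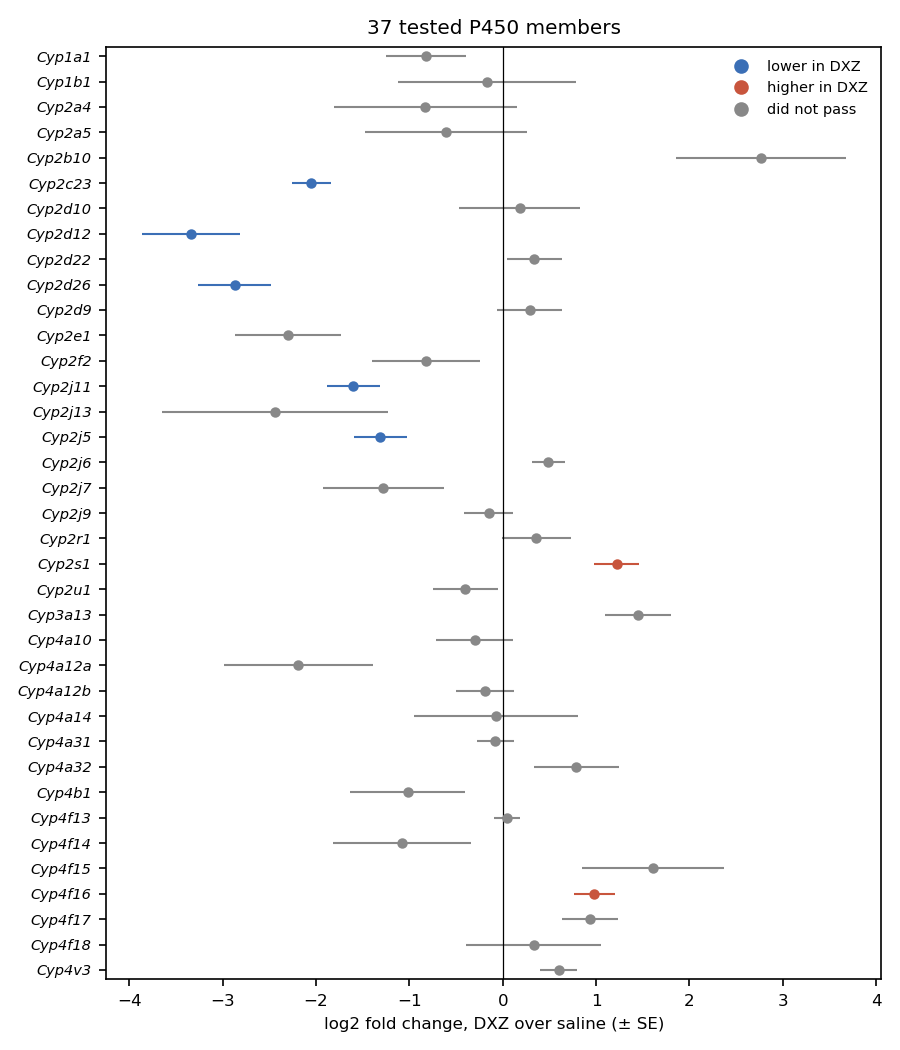
Log2 fold change, DXZ over saline, with its SE for the 37 tested members, ordered by subfamily (blue fell, red rose, grey did not pass). Members of the Cyp2d, Cyp2j and Cyp4f subfamilies lie on both sides of 0, and the widest SE, 1.21, is that of Cyp2j13.

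Several abundant P450 genes whose saline libraries differed widely did not pass. Cyp2e1 (chromosome 7, 140763739 to 140774987) was at 1721, 425, 471 and 884 CPM in saline and at 121, 133 and 280 CPM in DXZ. No libraries overlapped between groups, but saline spanned 4.05-fold, and the log2 fold change of -2.30 (SE 0.57) had an edgeR adjusted p of 0.0559. It passed with no filter on low counts (edgeR adjusted p = 0.0191) and by DESeq2 (adjusted p = 0.0104). Cyp4b1, a lung and kidney enzyme that activates plant furans (chromosome 4, 115624725 to 115647723), was at 2692, 629, 495 and 505 CPM in saline and at 466, 546 and 581 CPM in DXZ. Saline 1 was several times higher than any other library, and the other 6 were alike. Its log2 fold change was -1.02 (standard error 0.62, adjusted p = 0.342 by edgeR), and -0.03 without saline 1.

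Cyp2j13, an androgen-responsive member of the Cyp2j cluster, showed a 29-fold saline spread, the widest among members with counts in every saline library: it was at 310, 90.4, 17.1 and 10.7 CPM in saline and 42, 9.01 and 7.97 CPM in DXZ. Its log2 fold change of -2.44 (edgeR adjusted p = 0.252) was -1.01 without saline 1 and -3.66 without DXZ 1. Cyp4a12a, the main mouse enzyme making hydroxylated arachidonic acid, was at 72.5, 10.8, 13.7 and 18.4 CPM in saline and 3.49, 3.51 and 11.9 CPM in DXZ. Only DXZ 3 reached the saline range, and the log2 fold change was -2.19 (edgeR adjusted p = 0.134), or -1.18 without saline 1 and -3.05 without DXZ 3. Cyp2a4, a steroid hydroxylase, was at 424, 86.9, 34.3 and 34.1 CPM in saline and 137, 22.4 and 84.3 CPM in DXZ. Its near copy Cyp2a5, the coumarin hydroxylase, was at 262, 49.5, 49.4 and 56.9 CPM in saline and 14.4, 41.5 and 150 CPM in DXZ. Neither passed (edgeR adjusted p = 0.644 and 0.711), and Cyp2a4 changed sign, from -0.83 to 0.64, without saline 1.

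Saline 1, the highest library for each of these genes, was also highest for several other kidney genes known to depend on androgen. Kap, the kidney androgen-regulated protein, was at 18073, 7320, 2639 and 1730 CPM in saline and 4289, 2212 and 3218 CPM in DXZ. The transporter Slco1a1 was at 135, 27.9, 6.29 and 6.93 CPM in saline and 10.2, 2.48 and 9.68 CPM in DXZ. Saline 1 was the highest library for 5 of the 7 genes of this list that are not members. The others, Gusb and Timd2, were highest in DXZ 1 (50.7 CPM) and DXZ 2 (111 CPM). The share of all genes highest in saline 1 was not taken. Of the 37 P450 members tested, saline 1 was the highest saline library for 14 and the lowest for 15. Of the 10 genes of the list, 0 passed by edgeR (4 at an unadjusted p below 0.05; 0 by limma-voom; 1 higher and 1 lower by DESeq2), with a median log2 fold change of -1.22. Saline 1 also had the highest proximal tubule markers; the part of either in the spread of the P450 genes was not tested.

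**Figure D5:**
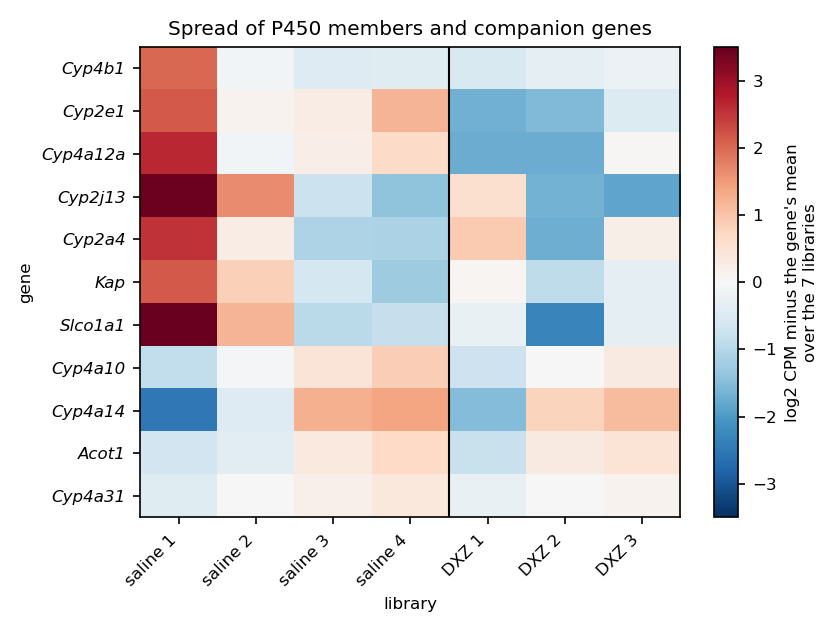
Log2 CPM minus the gene's mean over the 7 libraries for 8 P450 members and 3 companion genes (Kap and Slco1a1, androgen-responsive, and Acot1, a PPARα target). Cyp4b1, Cyp2e1, Cyp4a12a, Cyp2j13, Cyp2a4, Kap and Slco1a1 are highest in saline 1, where Cyp4a14 is lowest.

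The Cyp4a genes, fatty acid hydroxylases in 1 cluster on chromosome 4, gave no call. Of 6 members tested 0 passed by edgeR, limma-voom or DESeq2, and 1, Cyp4a12a, had an unadjusted p below 0.05. Cyp4a14 (115486200 to 115496142) was at 291, 1206, 3965 and 4314 CPM in saline and at 580, 2845 and 3549 CPM in DXZ. Saline spanned 14.8-fold and DXZ 6.12-fold, and the log2 fold change of -0.07 (standard error 0.88, adjusted p = 0.970 by edgeR) lay between -0.50 without DXZ 3 and 0.39 without DXZ 1. Cyp4a10 was at 631, 1085, 1573 and 2096 CPM in saline and at 691, 1163 and 1430 CPM in DXZ (-0.30, SE 0.41). Saline 1 and DXZ 1 were again the lowest of their groups. Cyp4a31 varied least, at 376, 497, 565 and 653 CPM in saline and 422, 513 and 551 CPM in DXZ (-0.08, SE 0.20), and Cyp4a12b and Cyp4a32 were at -0.19 and 0.79.

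Among other PPARα targets, the thioesterase Acot1 was at 214, 268, 436 and 560 CPM in saline and at 199, 424 and 475 CPM in DXZ. Saline 1 and DXZ 1 were the lowest of their groups, as for Cyp4a14 and Cyp4a10. Ppara itself was at 26 to 48.6 CPM in saline and 26.3 to 30 CPM in DXZ, with saline 1 the highest. Of 21 tested genes of the PPARα list, which includes Cyp4a10 and Cyp4a14, 1 rose and 0 fell, with a median log2 fold change of -0.05. The 1 was Plin2, which coats lipid droplets, at 421, 538, 540 and 670 CPM in saline and 885, 1647 and 1815 CPM in DXZ (1.42 with a standard error of 0.26, adjusted p = 0.0303 by edgeR).

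Family 1 was low or uneven. Cyp1a1, the classic AhR target, had 14, 22, 11 and 21 counts in saline and 10, 13 and 6 in DXZ (log2 fold change -0.82, edgeR adjusted p = 0.273). Cyp1b1, an AhR target of stromal and vascular cells (chromosome 17), was at 71.4, 74, 26.1 and 16.9 CPM in saline and at 108, 10.9 and 6.2 CPM in DXZ. DXZ 1 was the highest of all libraries and DXZ 2 and 3 the lowest. Its log2 fold change of -0.17 (edgeR adjusted p = 0.933) was -2.46 without DXZ 1, at which it did not pass, and 0.31 without DXZ 3. Endothelial markers summed to 307, 111 and 71.7 CPM in DXZ 1, 2 and 3 and to 197 to 301 CPM in saline. Macrophage markers summed to 258, 95.3 and 61.9 CPM in DXZ and to 76.9 to 165 CPM in saline. The part of either in the spread of Cyp1b1 was not tested. Of 7 tested AhR targets 0 passed by edgeR (2 at an unadjusted p below 0.05; 1 higher by DESeq2 and 1 higher by limma-voom), with a median of 0.40.

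Other members were higher in each DXZ library without passing. Cyp3a13, the single Cyp3a member, was at 1.61, 2.32, 2.93 and 2.64 CPM in saline and at 5.64, 9.8 and 4.07 CPM in DXZ (log2 fold change 1.45 with a standard error of 0.35, adjusted p = 0.0512 by edgeR). It passed without DXZ 1 (edgeR adjusted p = 0.0483), with no filter on low counts (0.0339) and by DESeq2 (adjusted p = 0.00263). Cyp2b10, a target of the xenobiotic receptor CAR, had 4, 23, 18 and 0 counts in saline and 60, 36 and 141 in DXZ. Its log2 fold change of 2.77 (SE 0.91) had an edgeR adjusted p of 0.107, and 0.0157 by DESeq2 (adjusted p). It ran from 2.03 without DXZ 3 to 3.38 without saline 2. Cyp4v3, a fatty acid hydroxylase, was at 6.25, 9.69, 9.41 and 8.17 CPM in saline and at 10.4, 14 and 13.7 CPM in DXZ (0.60, edgeR adjusted p = 0.105). The vitamin D hydroxylase Cyp2r1 (0.36), the fatty acid hydroxylase Cyp2u1 (-0.40) and Cyp2f2 (-0.82) had edgeR adjusted p-values of 0.592, 0.529 and 0.414. Cyp2t4, with 5 to 13 counts per library, was too low to test.

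Of the 42 coding genes left out by the count minimum, 23 had 0 counts in all 7 libraries and 9 had 1 to 3 summed over them. They included 8 of 9 Cyp3a genes and Cyp1a2, typical of liver. Named after their values were seen, Cyp2c69 and Cyp2c68 had 33 and 25 counts over the saline libraries and 0 over DXZ. With the saline counts taken as exact, they were at least 8.33-fold and 6.31-fold lower, with 3 counts over the DXZ group as the limit of a 0. Their saline counts ran from 2 to 20 and from 1 to 12, the highest in saline 1. Without saline 1, a comparison added after seeing the data, each had 13 saline counts and was at least 4.42-fold lower on the same terms. These limits cover the counting error of the 0 in DXZ only, not that of the saline counts or the spread between samples.

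The genes that work with or regulate P450 enzymes were taken from lists. Over all genes tested, 25.4% had an unadjusted p below 0.05 by edgeR. Of 10 tested electron donors 0 passed by edgeR (2 at an unadjusted p below 0.05; 0 by limma-voom, 1 higher and 1 lower by DESeq2), at a median of 0.00, and the reductase Por was at 375 ± 86 CPM (SD, n = 4) in saline and 370 ± 49.7 CPM (SD, n = 3) in DXZ. Of 10 heme synthesis genes 0 passed by edgeR, limma-voom or DESeq2 (1 at an unadjusted p below 0.05), at a median of -0.14. Of 17 P450 regulators 0 passed by edgeR (7 at an unadjusted p below 0.05; 0 by limma-voom, 3 lower by DESeq2), at a median of -0.24. Hnf4a, a factor that maintains proximal tubule and liver genes, was at 936, 535, 680 and 731 CPM in saline and 340, 387 and 484 CPM in DXZ, without overlap (-0.84, edgeR adjusted p = 0.0588).

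Of 17 arachidonate and epoxide genes 0 passed by edgeR (6 at an unadjusted p below 0.05; 1 higher by limma-voom; 3 higher and 1 lower by DESeq2), at a median of 0.01. Alox5, the leukotriene-forming lipoxygenase, was at 0.745, 5.65, 4.28 and 2.35 CPM in saline and 14.7, 19.5 and 11.5 CPM in DXZ (2.23, edgeR adjusted p = 0.0529). Of 12 tested genes of other P450 families 1 fell (2 at an unadjusted p below 0.05) and 0 rose, at a median of -0.72. It was Cyp27a1, the mitochondrial sterol hydroxylase, at 52.4, 56.1, 58.6 and 71 CPM in saline and 41.8, 31.4 and 37.7 CPM in DXZ (-0.69, edgeR adjusted p = 0.0377). The vitamin D enzymes Cyp24a1 (-1.24) and Cyp27b1 (-1.65) did not pass.

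Other tissues that could add P450 transcripts were checked. Adrenal cortex markers summed to 4.58 to 5.11 CPM in saline and 3.38 to 3.84 CPM in DXZ, with Cyp11b1 and Cyp11b2 at 0 counts. Hepatocyte markers summed to 119 to 215 and 120 to 212 CPM, with 0 of 6 called by edgeR, limma-voom or DESeq2 (0 at an unadjusted p below 0.05), and Alb was at 0.902 to 10.7 CPM. Adipocyte markers summed to 13.5 to 228 CPM in saline and 45.8 to 130 CPM in DXZ, the highest in saline 1.

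Near copies limit some values. Of the distinct 50-base stretches of a member's GENCODE M21 transcripts, 48.9% of Cyp4a12a recur in Cyp4a12b, 36.1% of Cyp2a4 in Cyp2a5, 32.6% of Cyp4a32 in Cyp4a10 and 22.9% of Cyp2d10 in Cyp2d11. The share found in any other gene was 49.4% for Cyp4a12b, 37% for Cyp2a5, 29.8% for Cyp4a10, 21.8% for Cyp2d9 and 20.6% for Cyp4a31. How the authors' counting treated reads from such stretches is not given, and the values of all these genes are uncertain. Among the members that fell the share found in any other gene was 0% for Cyp2c23, 0.174% for Cyp2j5, 1.34% for Cyp2j11, 7.61% for Cyp2d12 and 9.49% for Cyp2d26. For Cyp4f16 it was 17.4%, most of it shared with Cyp4f37, which had 0 counts in all libraries.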

How the data were processed

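The authors deposited whole-number read counts per gene and FPKM values, which per the file headers carry gene names and coordinates. FPKM times gene length over counts was constant within each library (coefficient of variation at most 1.44e-08% over 9832 genes), so FPKM adds no independent measurement. HISAT2, StringTie and mm9 are named in the submitters' processing notes; the counting program is not given in the sources used here. The coordinates are those of GENCODE M21 (GRCm38) for 35 of 38 members, not for Cyp1b1, Cyp4f14 and Cyp4f17, so the build was taken as GRCm38. Counts were fitted in R 4.3.3 with edgeR 4.0.16 (filterByExpr, TMM, quasi-likelihood F test, tested on simulated data); SE is the fold change over the square root of F. limma 3.58.1 and DESeq2 1.42.0 gave alternatives. The labels give no batch. Named genes were the members past the test, the highest by FPKM of each subfamily, the 5 lowest and 5 highest fold changes at 1 CPM or more, and 8 fixed genes, with up to 3 changed genes per companion list; the remaining genes were chosen with values seen. Members, lists and rules were chosen with earlier results of these data known. Replicate libraries were not copies: the chi-square of their counts was 14 to 90.4 times its degrees of freedom.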

Additional observations from a re-analysis of the deposited data

Results flagged for a closer look

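In 9 of 38 members 1 saline library lay far from the other 3. The rule was a gap to its neighbour, over the range of the 4, above Dixon's critical value. That value flags about 1 in 20 groups of independent, normally distributed values. Here the gap was taken on CPM without a log, and the members are not independent, so the 2 shares cannot be compared. The share of all genes flagged by this rule was not taken. Whether 9 of 38 is unusual in these libraries is therefore not known. In 5 of them saline 1 was high: Cyp2a4 at 424 CPM (others 34.1 to 86.9), Cyp2a5 at 262 (49.4 to 56.9), Cyp4a12a at 72.5 (10.8 to 18.4), Cyp4b1 at 2692 (495 to 629) and Cyp4f14 at 2.18 (0.672 to 0.892). Saline 1 was low for Cyp2j6, at 44.7 CPM (58.6 to 60.5). Cyp2r1 was high in saline 3, at 1.53 CPM (0.882 to 0.975), and Cyp4f16 in saline 2, at 18 CPM (10.5 to 11.7). Cyp4a32 was low in saline 2, at 0.773 CPM (2.47 to 2.81).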

How the results depend on the processing

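The 5 lower and 2 higher members were called under the planned median-of-ratios scaling, 1 CPM filter, robust dispersion and filtered FPKM fits. DESeq2 called 5 higher. Limma on log2(FPKM + 1) with no filter, which tests more genes, called 0 higher and 2 lower (15 members at an unadjusted p below 0.05). With 1 library left out the counts ran from 0 to 3 higher and from 0 to 5 lower. A minimum mean of 10 counts over the libraries gave 37 members, without Cyp2t4. With the replicate number as a block on 6 libraries, 0 rose and 3 fell by edgeR (15 at an unadjusted p below 0.05). Without the block those 6 libraries, all but saline 4, gave 0 changed members. Over all genes 4 passed without the block and 115 with it. Whether the numbers pair the libraries is not given by the labels. Deviations from group means correlated at 0.258, -0.0883 and 0.226, and 3 of 6 libraries correlated best with their own number. So few values cannot decide whether the libraries are paired. No called member reversed. Of the others, Cyp4a14 was at 0.69 with the replicate block, 0.06 by limma-voom, 0.20 on each FPKM scale and 0.02 without saline 1 and DXZ 1, and ran from -0.50 to 0.39 with 1 library left out. Cyp2a4 was at 0.09 by limma-voom and 0.04 without saline 1 and DXZ 1 (-1.44 to 0.64 with 1 left out), Cyp4b1 at 0.05 without saline 1 and DXZ 1, and Cyp1b1 from -2.46 to 0.31 with 1 left out. The fit without saline 1 and DXZ 1 was added after seeing the data. The causes were not tested. Members with few counts, such as Cyp1a1, have wide errors, and a change could go undetected at this depth.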
